A study of Homo sapiens with 1 sample.

Results

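The newborn neuron-like cells were 121 of the 12239 cells that passed the filters in a single-cell RNA-seq library of differentiating human embryonic stem cells, or 0.989% (exact binomial interval at 95%, 0.821 to 1.18%). A cell was counted as a member when it held at least 1 unique molecular identifier (UMI, 1 captured RNA molecule) of at least 3 of 6 rule markers, STMN2, ELAVL3, ELAVL4, INSM1, NHLH1 and NEUROD1. Kept cells had 2000 to 10000 detected genes, a mitochondrial share of their UMIs from 0.01 to below 0.1, and fewer than 5 UMIs per 10000 of ANXA1, TFPI2 and CTGF together. The members were compared with the 9616 kept cells (78.6%) that held no UMI of any of the 6, called comparison cells here. The members were thus selected on measured RNA, and the 6 genes are described without being used as evidence.

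When a neural progenitor commits to the neuronal fate, proneural basic helix-loop-helix factors rise, Notch ligands appear on its surface, and neighbouring progenitors are held back through HES genes. The daughter cell leaves the cell cycle, turns on a cascade of later transcription factors, and builds neuronal microtubules, axon guidance receptors and secretory vesicles. In the forebrain, the earliest neurons to leave the ventricular zone include glutamatergic cells that pass through an EOMES-positive intermediate stage, and Cajal-Retzius cells, which secrete reelin.

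The cells were of H9, an established human embryonic stem cell line, with the human version of the enhancer HAR123 (hHAR123, genotype WT). They had been driven towards neural progenitor cells (NPCs) with Dorsomorphin and SB431542, inhibitors of BMP and of activin and TGF-beta signalling, grown as embryoid bodies and replated. By the methods of the study, independent clones were pooled and cells were taken ahead of rosette selection, so clones could not be told apart. This was 1 library, without replicates, so no test was run. All intervals cover counting error at 95% only, and cells were not replicates.

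Members held 1971847 UMIs in all, 0.832% of the UMIs of kept cells, and comparison cells held 183589615. The median member had 14100 UMIs (range 4659 to 56501) and 4642 genes, and the median comparison cell had 16880 UMIs and 5411.5 genes. Of the 2487 barcodes that were not kept, 5 held at least 3 of the rule markers. A set of 18 members, found by the clustering described below and called group 4, had a median of 30581 UMIs, carried mitotic RNA, and held 11 of the 13 members whose Scrublet score, a measure of likeness to simulated doublets, was among the highest 8.64% of the library. Levels below are pooled over UMIs, so these deep cells, 14.9% of the members, weigh more in them than their number. Leaving these cells out moved some levels given below by more than 1.5 times. For genes and lists high enough to be compared, the level in the other 103 members is then given beside it. Genes and lists under the minimum for comparing, given below, were not checked in this way.

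STMN2 encodes stathmin-2, a microtubule regulator of growth cones, and was found in 115 of the 121 members with a median of 27 UMIs (range 0 to 104). ELAVL3 and ELAVL4, neuronal RNA-binding proteins of the Hu family, were found in 116 and 97 members. INSM1, a zinc finger factor of newborn neurons and endocrine cells, was found in 88. The helix-loop-helix factors NHLH1 and NEUROD1 were found in 79 and 80. All 6 were present together in 38 members, 5 in 37, 4 in 24 and exactly 3 in 22. The members held 96.2% of the NEUROD1 UMIs of all kept cells, but only 57.8% of the STMN2 UMIs and 34.1% of the ELAVL3 UMIs. The rest lay in cells with 1 or 2 rule markers.

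The values on either side of the threshold, which belong to the genes of the rule and are given as a description, were as follows. The 22 cells with exactly 3 rule markers held 734 STMN2 UMIs, a mean of 33.4 per cell, at a median depth of 13426.5 UMIs. The 207 cells with 2 rule markers held 444, a mean of 2.14 per cell, at a median depth of 17150 UMIs. A step in a rule marker at the threshold is in part set by the selection. Of the 22 cells, 9, 7 and 6 were of groups 1, 3 and 4 described below, and STMN2 was highest in group 1. The 2295 cells with 1 marker had a mean of 1.03 STMN2 UMIs. When each marker was left out in turn and cells were chosen by at least 3 of the other 5, STMN2 was found in 95 of 101 such cells (94.1%, 87.5 to 97.8%), against 1281 of 10897 cells (11.8%) with none of the other 5. NEUROD1 was found in 77 of 118 (65.3%, 55.9 to 73.8%) against 5 of 9621 (0.0520%).

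Transcription factors outside the rule were found in most members and in few comparison cells. EBF2, a helix-loop-helix factor of differentiating neurons, stood at 350.9 CPM (counts per 1000000 UMIs, pooled over cells; 325.3 to 378.1) in members and 0.387 CPM (0.302 to 0.488) in comparison cells. It was detected in 101 of 121 members with a median of 4 UMIs, and in 44 of 9616 comparison cells. LHX9, a LIM homeodomain factor of early cortical and diencephalic neurons, stood at 179.0 CPM against 0.229 CPM and was found in 98 members and 37 comparison cells. EOMES, the T-box factor of intermediate progenitors, stood at 146.1 CPM against 0.0218 CPM and was found in 70 members and 4 comparison cells. TBR1, the T-box factor that follows EOMES in glutamatergic neurons, stood at 90.8 CPM against 0.0436 CPM and was found in 62 members and 8 comparison cells. NEUROG1, a proneural factor upstream of NEUROD1, stood at 117.7 CPM against 0.0708 CPM and was found in 70 members and 6 comparison cells.

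UNCX, a homeodomain factor, had 210 UMIs in 78 members and none in the 9616 comparison cells, which allows a share of up to 0.0312% of cells with a UMI (limit of 3 counts). Its level in members was 106.5 CPM (92.6 to 121.9). With every cell thinned to 5000 UMIs, which left out 1 member and 11 comparison cells, UNCX was found in 39.2% of members and 0% of comparison cells, and EBF2 in 64.2% and 0.0625%. The order of the 2 kinds of cell was thus the same at a fixed depth. At least 3 of these 6 factors (EBF2, LHX9, EOMES, TBR1, NEUROG1 and UNCX, a set picked after their values were seen) were present in 101 of the 121 members and in 0 of the 9616 comparison cells. The pair of LHX9 and EBF2 was found together in 88 members, EOMES and TBR1 in 47, and 7 members held none of the 6.

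**Figure D1:**
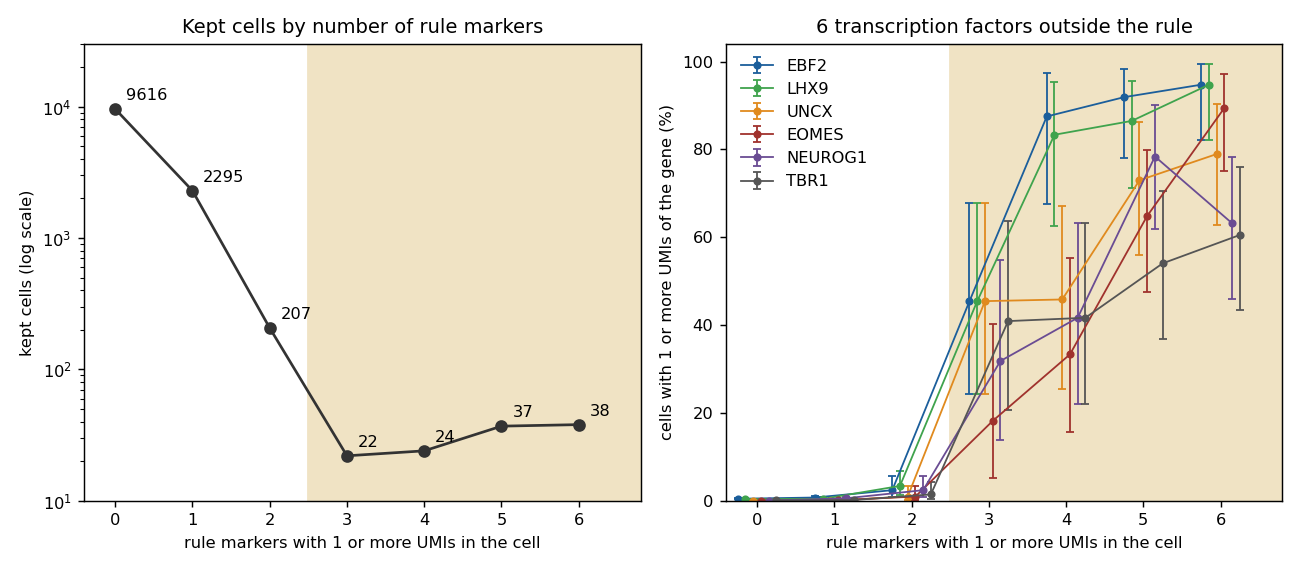
Left, number of kept cells (log scale) by the number of rule markers with a UMI, with the members shaded. Right, percent of those cells with a UMI of each of 6 transcription factors, with exact 95% binomial intervals. The rule did not use these 6, but they were picked for their high ratio in members. All 6 lie at or under 3.38% in cells with 2 markers, and EBF2 reaches 94.7% in cells with 6.

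The right panel of the plot by marker number gives these factors, picked for their high values in members, on each side of the threshold. EBF2 was found in 0.458%, 0.741% and 2.42% of cells with 0, 1 and 2 rule markers, and in 45.5%, 87.5%, 91.9% and 94.7% of cells with 3, 4, 5 and 6. EOMES went from 0.966% at 2 markers to 18.2% at 3 and 89.5% at 6. SOX2, the core factor of neural progenitors, went the other way, from 98.1% of cells at 2 markers to 54.5% at 3 and 47.4% at 6. All 18 cells of group 4 held SOX2, 6 of them at 3 markers and 5 at 6, which raised the shares at 3 and 6. Between the 22 members at the threshold and the 99 above it, the 5 genes with the largest ratio were ALK, CHRNA3, PSTPIP1, KCNQ5 and RELN. All 5 reached the mean of 20 CPM set for naming a gene only through the 99. The 22 held no cell of group 2, described below, of which PSTPIP1 and CHRNA3 are leading genes. The receptor tyrosine kinase ALK had 357 UMIs in the 99 cells and 0 in the 22, and RELN, which encodes reelin, had 209 and 2.

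Among the 23 proneural and neurogenic factors, 14 had a mean level of the 2 kinds of cell of at least 10 CPM, the minimum set for comparing a gene. Of these, 13 were at least 2-fold higher in members and none was at least 2-fold lower, beside 7.42% of all 10173 genes compared that were that much higher and 8.47% that were that much lower. Every list count below is to be read beside these 2 shares, which were 9.46% and 13.5% without group 4. Of the 755 higher genes, 325 were among the 486 genes with under 10 CPM in comparison cells. Of the 14 factors, 10 reached the minimum only through the members and so had to differ, and 3 of the other 4 were higher. HES6, a Notch-dampening factor, stood at 479.2 CPM against 40.1 CPM, ONECUT2 at 161.8 CPM against 10.1 CPM, and SOX4 at 1177 CPM against 396.6 CPM. SOX11 had the smallest ratio, 968.6 CPM against 644.9 CPM. Below the minimum, NEUROG2 had 10 UMIs in 9 members and 0 in comparison cells, and ATOH1 and NEUROD6 had none in the members.

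NEUROD4, a relative of NEUROD1, had 46 UMIs in 20 members and 0 in comparison cells. ST18 and MYT1L, zinc finger factors of the MYT1 family, which represses other fates in neurons, stood at 201.8 CPM against 0.185 CPM and 51.7 CPM against 0.599 CPM. Paralogues of the rule markers went with them in part: ELAVL2 stood at 409.3 CPM against 50.6 CPM and STMN4 at 79.6 CPM against 7.05 CPM, whereas the broadly expressed ELAVL1 stood at 84.2 CPM against 137.3 CPM.

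The DNA just upstream of 4 of these genes is shown. Basic helix-loop-helix factors found in the members, such as NEUROG1 and NEUROD1, bind E-boxes, short motifs whose neuronal forms are spelled CAGATG and CAGCTG. This does not cover the EBF factors. The 250 bases before the annotated start are from RefSeq (GRCh38.p14), written along the gene, with either motif, on either strand, in capitals. CAGCTG reads the same on both strands. NHLH1 and NEUROD1 are rule markers, and FSTL5 and LHX9 are among the genes with the highest ratio in members. For LHX9 the first of 2 annotated starts was taken.
NHLH1 (chr1:160366821-160367070, plus strand): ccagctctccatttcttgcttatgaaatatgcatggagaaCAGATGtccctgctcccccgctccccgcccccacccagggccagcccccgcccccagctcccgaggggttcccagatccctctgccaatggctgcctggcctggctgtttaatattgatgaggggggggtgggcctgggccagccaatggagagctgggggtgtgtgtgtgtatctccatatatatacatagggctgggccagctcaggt
FSTL5 (chr4:162164001-162164250, minus strand): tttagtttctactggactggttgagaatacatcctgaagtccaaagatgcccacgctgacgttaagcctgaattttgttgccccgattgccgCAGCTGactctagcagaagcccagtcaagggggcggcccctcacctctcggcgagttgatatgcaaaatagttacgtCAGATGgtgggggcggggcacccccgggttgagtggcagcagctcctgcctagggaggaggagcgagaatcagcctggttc
LHX9 (chr1:197912214-197912463, plus strand): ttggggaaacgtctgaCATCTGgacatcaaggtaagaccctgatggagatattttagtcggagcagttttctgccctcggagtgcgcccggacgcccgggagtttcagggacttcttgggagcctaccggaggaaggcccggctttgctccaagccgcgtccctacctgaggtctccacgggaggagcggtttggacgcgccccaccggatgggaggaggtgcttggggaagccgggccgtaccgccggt
NEUROD1 (chr2:181680518-181680767, minus strand): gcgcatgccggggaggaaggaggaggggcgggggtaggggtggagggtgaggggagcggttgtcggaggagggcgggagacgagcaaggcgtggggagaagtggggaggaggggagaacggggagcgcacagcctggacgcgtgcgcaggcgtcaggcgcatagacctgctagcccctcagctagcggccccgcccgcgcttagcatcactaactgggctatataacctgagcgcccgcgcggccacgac

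CAGATG began 210 bases before the NHLH1 start and 81 before the FSTL5 start, CAGCTG began 158 before the FSTL5 start, and CATCTG, the other strand of CAGATG, began 234 before the LHX9 start. Neither motif was in the NEUROD1 window, which says only that these letters are not there. Over all 27305 genes with such a sequence, 14.6% held CAGATG and 16.7% held CAGCTG. Among the 537 genes with a sequence that were at least 2-fold higher in members the shares were 17.1% and 24.6%, among the 661 at least 2-fold lower 12.9% and 18.5%, and among the 7964 compared 11.1% and 17.0%. Of the 15 genes with the highest ratio of CPM + 1, 9 had a sequence, of which 2 held CAGATG and 1 held CAGCTG, and FSTL5 and LHX9 were shown because they hold a motif. Of the 3 rule markers with a sequence, 2 held CAGATG and 1 held CAGCTG. A match describes the letters only, and genes with several annotated starts had more chances of one.

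The Notch ligands DLL3 and DLL1 were higher in members, and the receptors NOTCH2 and NOTCH3 and the targets HES1 and HES5 were lower. DLL3, a ligand that acts inside the cell that makes it, stood at 252.0 CPM (230.4 to 275.2) against 9.21 CPM, and was found in 108 of the 121 members with a median of 3 UMIs. DLL1, the main activating ligand of newborn neurons, stood at 122.2 CPM against 27.9 CPM, but its UMIs lay in 58 members. Of 9 ligands and modulators compared, 5 were at least 2-fold higher and none lower, and 3 of these 5 reached the minimum only through the members. Outside group 4, 5 were higher and 1 was lower. JAG1 differed little (47.7 CPM against 45.3 CPM). Among 6 receptors and targets compared, 4 were at least 2-fold lower and none higher, and 5 were lower outside group 4. HES1 stood at 35.0 CPM against 110.9 CPM, and HES5 at 60.9 CPM against 186.3 CPM. Group 4 held 56 of the 69 HES1 UMIs and 99 of the 120 HES5 UMIs of the members, and outside it the levels were 9.36 CPM and 15.1 CPM. NOTCH2 stood at 21.3 CPM against 60.4 CPM and NOTCH3 at 22.8 CPM against 52.1 CPM, or 9.36 CPM and 10.8 CPM outside group 4. The receptor NOTCH1 passed the limit neither in all members, at 44.6 CPM against 61.0 CPM, nor outside group 4, at 35.3 CPM. HES4 did not pass the limit in all members, at 65.9 CPM against 109.4 CPM, but passed it outside group 4, at 49.7 CPM. The targets HEY1, HEY2 and HEYL were under the minimum with 8, 7 and 2 UMIs in members, at levels of 4.06, 3.55 and 1.01 CPM against 2.90, 0.643 and 0.387 CPM. The summed level of the list was 265.7 CPM in all members and 147.6 CPM outside group 4.

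The members held less RNA of cycling genes and more of some genes of cell cycle exit. Of 11 exit genes and cyclins compared, 4 were at least 2-fold higher, 1 was lower and 6 lay between, and 1 of the 4 had reached the minimum only through the members. CDKN1C, an inhibitor of cyclin-dependent kinases, stood at 857.6 CPM (817.2 to 899.4) against 58.7 CPM (57.6 to 59.8), in 117 members with a median of 11 UMIs. GADD45G, a growth arrest gene of newly committed neurons, stood at 121.2 CPM against 2.45 CPM, in 55 members. CDKN1A, the inhibitor induced by p53, had 3 UMIs in members, 1.52 CPM against 6.48 CPM, CDKN2C had none, and CDKN1B stood at 26.9 CPM against 34.2 CPM. All 14 mitotic genes were at least 2-fold lower, among them MKI67 at 53.8 CPM against 210.0 CPM and CENPF at 221.6 CPM against 712.3 CPM. Group 4 held 102 of the 106 MKI67 UMIs of the members, and outside it MKI67 stood at 2.88 CPM and CENPF at 47.5 CPM. Of 14 S phase genes, 13 were at least 2-fold lower, with MCM2 the exception at 27.4 CPM against 46.9 CPM. Outside group 4 all 14 were, MCM2 stood at 17.3 CPM, and the summed S phase level was 169.9 CPM in place of 414.3 CPM, against 1280 CPM in comparison cells. Of the cyclins in the list, CCND1 stood at 88.7 CPM against 188.4 CPM.

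Most of the mitotic RNA that was left lay in group 4. The summed mitotic list stood at 778.0 CPM in members and 2540 CPM in comparison cells, a ratio of 0.306 (0.291 to 0.322), and at 123.1 CPM in the 103 members outside group 4. On the log2 scale the difference was -1.71 with group 4 and -4.37 without it. The median member held 0.865 mitotic UMIs per 10000, and the median comparison cell 10.1.

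Most progenitor genes were lower in members, with UMIs left. The part of RNA free in the suspension in these UMIs was not tested. Of 18 compared, 13 were at least 2-fold lower and none higher, with a summed ratio of 0.529 (0.515 to 0.544). SOX2 stood at 142.0 CPM against 413.9 CPM and was found in 61 of the 121 members, where almost every comparison cell (99.0%) had it. Group 4 held 171 of the 280 SOX2 UMIs, and outside it SOX2 stood at 78.5 CPM and was found in 43 of 103 members. FZD5, a WNT receptor of the early forebrain and eye field, stood at 67.4 CPM against 275.0 CPM, and HMGA2, a chromatin protein of young progenitors, at 118.7 CPM against 414.0 CPM. Outside group 4 they stood at 23.0 CPM and 53.3 CPM. VIM, the intermediate filament of radial glia, stood at 380.4 CPM against 905.7 CPM. LHX2 and MSI1 had values on the other side, 238.9 CPM against 162.6 CPM and 105.0 CPM against 72.7 CPM, and CDH2 differed by less than its counting error, 733.3 CPM (696.0 to 772.1) against 759.2 CPM (755.2 to 763.2). Without group 4 the count was 14 of 18.

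In CPM, though not as a ratio, the list of the neuronal cytoskeleton and growth cone had the largest difference in summed level among the lists. Its 21 genes, none of them a rule marker, summed to 13335 CPM in members and 3775 CPM in comparison cells, a ratio of 3.53 (3.49 to 3.58), and 19 of the 21 were at least 2-fold higher. Of the 21, 18 had at least 10 CPM in comparison cells, and 16 of these 18 were higher. MAP1B, a microtubule-associated protein of growing axons, stood at 3996 CPM against 584.5 CPM and was found in every member with a median of 53 UMIs. DCX, doublecortin, which migrating neurons need, stood at 821.1 CPM (781.5 to 862.0) against 63.9 CPM (62.7 to 65.0) in 119 members. INA, an early neurofilament subunit, stood at 189.7 CPM against 16.2 CPM. The 2 that missed the 2-fold limit were DPYSL2 (313.9 CPM against 242.6 CPM) and DPYSL4 (47.2 CPM against 33.7 CPM).

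Cell by cell, the list summed to a median of 118.6 UMIs per 10000 in members (29.4 to 379.0) and 37.5 in comparison cells (5.69 to 86.4). Of the 121 members, 109 were above 53.9 UMIs per 10000, the 95th percentile of the comparison cells, and 76 were above the highest comparison cell. For the progenitor list, 105 of the 121 members were below the 5th percentile of the comparison cells, 35.9 UMIs per 10000. The 12 members at or under the neuronal limit were 6 cells each of groups 3 and 4, described below.

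**Figure D2:**
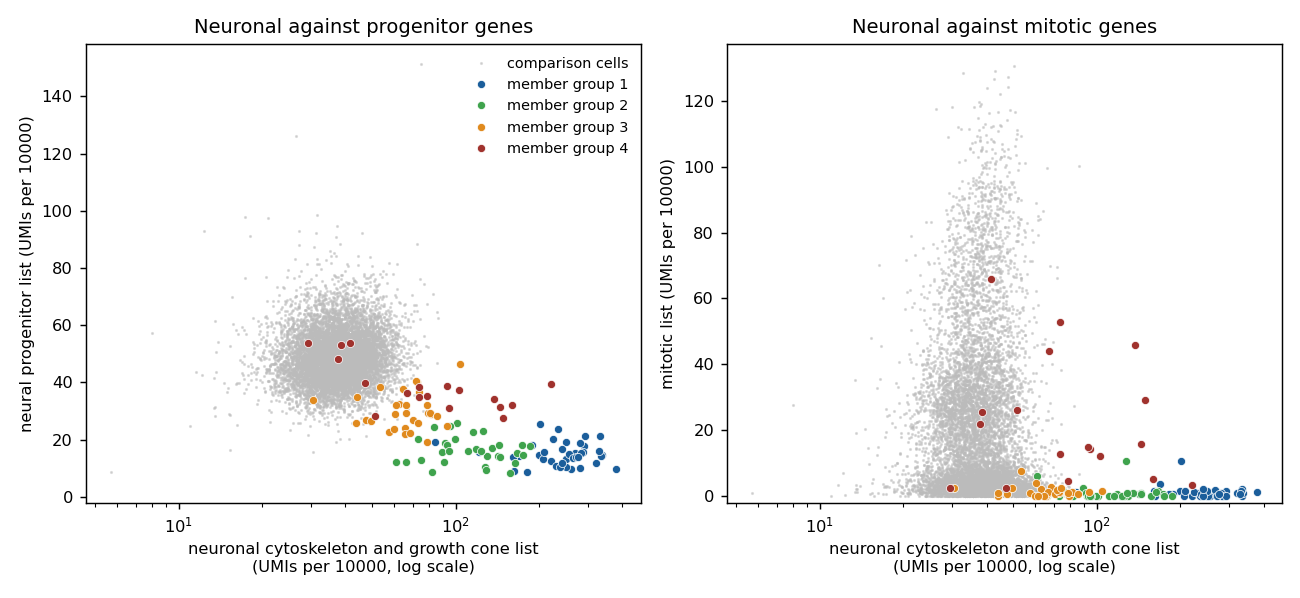
Each point is a cell, with the summed UMIs per 10000 of the neuronal cytoskeleton and growth cone list on a log axis and, on the y axis, those of the neural progenitor list (left) or the mitotic list (right). Grey points are the 9616 comparison cells and coloured points the 121 members in 4 groups: group 1 lies farthest to the right, and the members with many mitotic UMIs are of group 4.

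Genes of secretion and the synapse were already present. Of 17 compared, 15 were at least 2-fold higher and none lower, 10 of the 17 having reached the minimum only through the members, and 5 of the other 7 were higher. SYP, synaptophysin of synaptic vesicles, stood at 167.4 CPM against 3.59 CPM in 91 members, and SYT4, a synaptotagmin, at 93.8 CPM with 5 UMIs in all comparison cells. SNAP25, a fusion protein of the presynaptic membrane, stood at 52.2 CPM against 3.82 CPM in 52 members. VGF, a neuropeptide precursor, differed within its counting error (15.2 CPM, 10.3 to 21.7, against 11.6 CPM, 11.1 to 12.1).

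Among 10 neuronal RNA-binding proteins, 6 were at least 2-fold higher, 2 of them having reached the minimum only through the members, and 4 of the other 8 were higher. SRRM4, the splicing factor of neural microexons, stood at 309.4 CPM against 16.7 CPM in 106 members, and CELF3 at 53.8 CPM against 1.46 CPM. RBFOX3, the antigen NeuN of mature neurons, stood at 31.4 CPM against 2.34 CPM but in only 27 members. RBFOX2 was at the same level in both (294.6 CPM, 271.2 to 319.6, against 295.9 CPM, 293.4 to 298.4).

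Of 20 axon guidance and adhesion genes compared, 11 were at least 2-fold higher and 1 was lower. Over all genes compared the shares were 7.42% and 8.47%. Of the 20, 5 had reached the minimum only through the members, and 6 of the other 15 were higher. DCC, the netrin receptor of growing axons, had the largest ratio of CPM + 1 in the list, 3094 CPM (3016 to 3172) against 73.3 CPM (72.1 to 74.6), with a median of 40 UMIs in members. CNTN2, an axonal adhesion protein, stood at 53.8 CPM against 0.594 CPM, and ROBO2, a SLIT receptor, at 305.8 CPM against 53.6 CPM. The ligand SLIT2 was the one that was lower, 74.5 CPM against 174.0 CPM. Among 9 ion channel genes compared, 7 were higher, 3 of them having reached the minimum only through the members, and 4 of the other 6 were higher. They were led by KCNIP4, a potassium channel partner, at 1547 CPM against 17.4 CPM, followed by SCN3A, a sodium channel of fetal brain, at 56.3 CPM against 1.72 CPM. KCNC1 was not past the limit, at 20.3 CPM against 26.1 CPM.

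**Figure D3:**
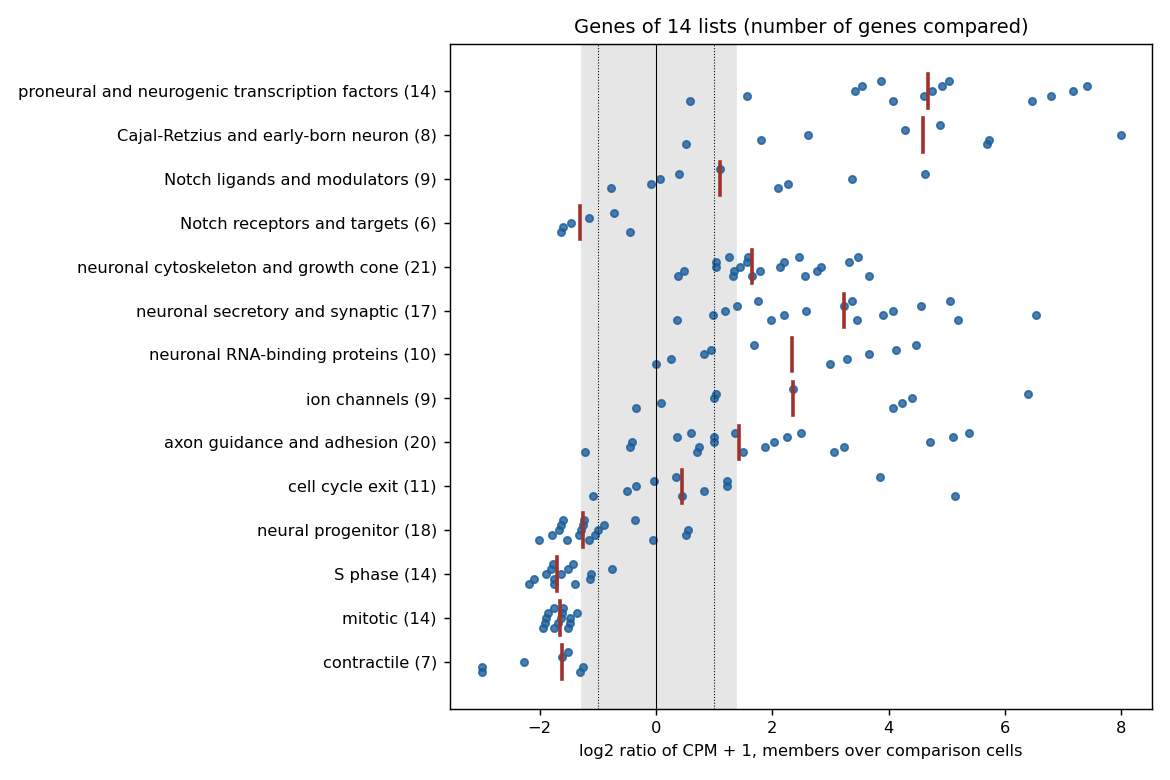
Log2 ratio of CPM + 1 in members over comparison cells for the compared genes of 14 lists. Points are genes, red bars list medians, dotted lines the 2-fold limits, and the grey band holds the 5th to the 95th percentile of all 10173 genes compared (-1.27 to 1.38). Lists of neuronal and neurogenic genes lie to the right and those of progenitor, S phase, mitotic and contractile genes to the left. The medians of the Notch ligand (1.10), cell cycle exit (0.44) and progenitor (-1.25) lists lie within the band. The 14 lists were picked from those with a gene compared. Among those not shown are the sensory and placodal (median 4.33), GABAergic (1.67) and epithelial (-1.38) lists.

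Transporters that load vesicles with glutamate were found in part of the members, and the enzymes and transporter that define GABA release had at most 1 UMI each over all members. SLC17A6, the vesicular glutamate transporter VGLUT2, had 157 UMIs in 45 members, a level of 79.6 CPM (67.7 to 93.1), and 1 UMI in 9616 comparison cells. SLC17A7, VGLUT1, stood at 14.7 CPM in 23 members against 0.283 CPM. GAD1, which makes GABA, had 1 UMI in the members, and GAD2 and the vesicular transporter SLC32A1 had none, which allows up to 1.52 CPM, while GAD2 stood at 3.55 CPM in comparison cells. DLX5, a ventral forebrain factor, stood at 6.09 CPM (3.60 CPM outside group 4) against 26.6 CPM. The GABAergic list as a whole went the other way, with a summed level of 289.6 CPM against 95.9 CPM (ratio 3.02, 2.77 to 3.28), and 3 of its 4 genes compared were at least 2-fold higher, 2 of them having reached the minimum only through the members. Among the 3 was ABAT, which breaks GABA down, at 18.8 CPM against 8.62 CPM. The glutamatergic list had a ratio of 3.22 (3.01 to 3.44), with 4 of 6 genes compared higher, 3 of the 6 having reached the minimum only through the members. No gene of 11 cholinergic and monoaminergic genes reached the minimum.

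Of 8 genes compared that are known from Cajal-Retzius and other early-born neurons, 7 were at least 2-fold higher, 5 of the 8 having reached the minimum only through the members, and 2 of the other 3 were higher. EBF1 stood at 369.7 CPM against 59.7 CPM, EBF3 at 136.4 CPM against 1.66 CPM, LHX5 at 68.5 CPM against 18.9 CPM and LHX1 at 40.1 CPM against 0.392 CPM. RELN stood at 107.0 CPM against 1.03 CPM in 45 members. TP73 and CALB2, which also mark Cajal-Retzius cells, had 4 UMIs each, in 1 and 3 members. The list is thus present in part, and the cells are not named after it.

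The lists for 2 other regions were nearly empty. None of 13 midbrain and hindbrain genes reached the minimum, 7 of them had no UMI in the members, and the summed level was 10.1 CPM against 17.7 CPM. None of 10 hypothalamic and ventral forebrain genes did either, with 8.62 CPM against 6.60 CPM. The sensory and placodal list summed to 306.8 CPM against 38.6 CPM, a ratio of 7.95 (7.31 to 8.64), and 3 of 5 genes compared were at least 2-fold higher, all 3 having reached the minimum only through the members. They were EYA2 (120.2 CPM against 4.59 CPM) and TFAP2A (25.9 CPM against 0.332 CPM, in 28 members), with NEUROG1, whereas TLX3, TFAP2B and FOXD3 had no UMI. The retinal list summed to 84.2 CPM against 113.9 CPM, of which OTX2, also a factor of early forebrain progenitors, made 53.8 CPM against 106.7 CPM, and ATOH7 and POU4F2 had 2.03 CPM and 0 CPM in members.

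Ranked by the ratio of CPM + 1, which damps the ratios of genes near 0 in comparison cells, the 15 highest genes in members were, in order, SGCZ, EBF2, CNTNAP5, FSTL5, ST18, LHX9, EOMES, SAMD5, RUNX1T1, NEUROG1, UNCX, SYT4, AL033504.1, TBR1 and VSX1. All 15 had at most 2.81 CPM in comparison cells. They reached the mean of 20 CPM set for naming a gene only through the members, and so had to be far higher. SGCZ, a sarcoglycan, stood at 560.4 CPM against 0.833 CPM, but its UMIs lay in 50 members, with up to 92 in a cell. CNTNAP5, an adhesion protein of the neurexin family, stood at 388.0 CPM against 0.839 CPM in 67 members, and FSTL5, a secreted follistatin-like protein, at 363.6 CPM against 1.05 CPM in 57. RUNX1T1, a corepressor, stood at 421.9 CPM against 2.81 CPM in 94 members. Without the added 1, the order differs. The homeodomain gene VSX1, the last of the 15, had 171 UMIs in 32 members and 1 in the comparison cells, a ratio of 15921 with a counting interval of 2820 to 632478, where SGCZ had 672.4 (567.4 to 801.6).

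By the same measure, the 10 lowest genes were IER3, TAGLN, AC016766.1, SAMD4A, CDH6, XACT, ID3, ID1, KRT18 and PRR16. ID1 and ID3, which block helix-loop-helix factors and respond to BMP signalling, stood at 10.1 CPM (6.20 to 15.7) against 56.9 CPM (55.8 to 58.0) and at 28.9 CPM against 168.9 CPM. Outside group 4 they stood at 3.60 CPM and 7.92 CPM. ID3 was found in 25 of the 121 members and in 71.0% of comparison cells, or 5.00% and 43.1% at 5000 UMIs per cell. The immediate early gene IER3 stood at 10.1 CPM (2.88 CPM outside group 4) against 106.3 CPM. TAGLN, transgelin of contractile cells, stood at 53.2 CPM against 432.8 CPM, with 88 of its 105 UMIs in group 4 and 12.2 CPM outside it. All 7 contractile genes compared were at least 2-fold lower with and without group 4, and the list summed to 448.3 CPM in all members, 275.1 CPM outside group 4 and 1601 CPM in comparison cells. KRT18, a keratin of simple epithelia, stood at 15.7 CPM (5.76 CPM outside group 4) against 84.3 CPM.

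Of the pluripotent, glial and epithelial lists, only 3, 2 and 3 genes were compared. None was at least 2-fold higher in members, and 1, 1 and 2 were at least 2-fold lower. Beside 7.42% of all genes compared that were higher, so few genes do not set these lists apart. No gene of the mesenchymal or endodermal list reached the minimum, so none was compared. Of the pluripotency list, NANOG had no UMI in members and POU5F1 had 1, and DPPA4, L1TD1 and LIN28B, which the comparison cells also carried, stood at 73.5, 38.5 and 419.9 CPM against 125.8, 84.1 and 351.7 CPM. Of the glial list, GFAP, AQP4 and OLIG1 had none. The 9 mesenchymal and neural crest genes summed to 8.11 CPM against 25.5 CPM, and the 7 endodermal genes to 11.2 CPM against 9.05 CPM. Of 15 p53 target and stress genes, 9 were compared and only the chaperone HSPA5 was past the limit, at 92.8 CPM against 204.9 CPM. Of all genes compared, 8.47% were at least 2-fold lower. SMG6, the gene that holds HAR123 in an intron, stood at 97.9 CPM (84.6 to 112.7) against 130.6 CPM (129.0 to 132.3). HIC1, a repressor gene of the same region, had no UMI in members, which allows up to 1.52 CPM, and 0.403 CPM in comparison cells, so no difference was detectable at this depth.

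Over all genes, 755 were at least 2-fold higher and 862 at least 2-fold lower by CPM, so that 46.7% of the genes past the limit were higher. Counted as UMIs per cell, which keeps the lower UMI totals of the members, 559 were higher and 1249 lower, or 30.9% higher, and the median log2 ratio of the genes compared moved from -0.07 to -0.29. None of the named or listed genes past the limit changed direction between these scales. Less RNA in the cells and a lower capture of it cannot be told apart here.

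The members were not alike. Clustering them by Leiden on variable genes, with the 6 rule markers left out, gave 4 groups of 41, 32, 30 and 18 cells at a resolution of 0.5. Resolutions of 0.3, 0.7 and 1 gave 3, 6 and 7 groups, and the 18 cells of group 4 formed a group of their own at 0.7 and 1 but were part of a group of 48 cells at 0.3. The groups were defined by their own RNA, so the genes that lead them are given as their description. Group 1 (41 cells) was led by TAC3, NELL1, MAB21L1, GAP43, GRID1 and SLC17A6. Group 2 (32 cells) was led by RBFOX3, ARHGAP15, PSTPIP1 and CYP26B1. Group 3 (30 cells) was led by VSX1, NOS2, PRAG1, PLD5 and DLL1, with GADD45G among the first 10. Group 4 (18 cells) was led by MKI67, NUSAP1, TOP2A and UBE2C.

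Group 1 held the most neuronal RNA, 24395 CPM (23990 to 24805) of the cytoskeletal list, with 1519 CPM of the progenitor list. SLC17A6 was found in 35 of its 41 cells, TBR1 in 38, UNCX in 38, FSTL5 in 40 and GAP43, a growth cone protein, in 33. SOX2 was found in 6. Of the 45 members with SLC17A6, 35 were thus in this group, and STMN2 stood there at 4219 CPM.

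Group 2 held 11902 CPM of the cytoskeletal list and 1628 CPM of the progenitor list. NEUROD1 was found in all 32 cells at 366.3 CPM, NHLH1 in 30, NEUROG1 in 27 and EOMES in 29. HES6 stood at 990.5 CPM, RELN at 268.7 CPM in 22 cells, and CDKN1C at 1360 CPM. SLC17A6 was found in 3 cells and TBR1 in 18. RBFOX3 stood at 133.0 CPM in 18 of the 32 cells and was found in 1 cell of group 1, so that this gene did not follow the summed neuronal list.

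Group 3 held 6667 CPM of the cytoskeletal list and 3078 CPM of the progenitor list. DLL1 was found in 29 of its 30 cells at 379.2 CPM, GADD45G in 28 at 341.7 CPM, FEZF2, a forebrain zinc finger factor, in 29, and VSX1 in 16. EOMES was found in 3, TBR1 in 1, and SLC17A6 and LHX1 in none. SOX2 was found in 23. The mitotic list summed to 172.0 CPM, so that these cells, with progenitor RNA and Notch ligand, held little mitotic RNA.

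Group 4 held 8677 CPM of the cytoskeletal list, 3837 CPM of the progenitor list and 2338 CPM of the mitotic list, the last near the 2540 CPM of the comparison cells. SOX2 and STMN2 were each found in all 18 cells, and MKI67 in 12. The contractile list summed to 861.0 CPM, against 172.9 CPM in group 1. Genes of groups 1 to 3 were present as well, such as FEZF2 in 14, UNCX in 9, LHX9 in 12 and SLC17A6 in 7 cells. The median Scrublet score was 0.297, against 0.0890 in group 1 and 0.0760 in group 2. Whether 2 cells in 1 droplet account for these barcodes was not tested.

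**Figure D4:**
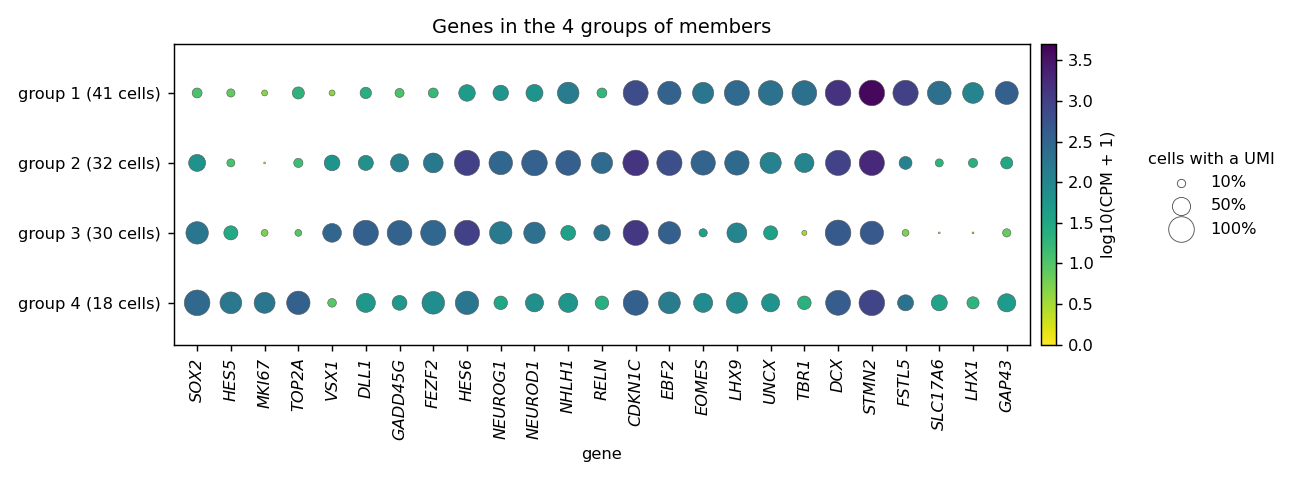
Named genes in the 4 groups of members. The area of a dot is the percent of cells of the group with a UMI and the colour is log10(CPM + 1), from 0 (yellow) to 3.7 (dark). MKI67 and TOP2A are large in group 4, VSX1, DLL1 and GADD45G in group 3, and TBR1, FSTL5, SLC17A6 and LHX1 in group 1.

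The rule counted the groups differently. None of the 32 cells of group 2 lay at the threshold of 3 rule markers and 17 held all 6, whereas 9 of 41 cells of group 1, 7 of 30 of group 3 and 6 of 18 of group 4 held exactly 3. NHLH1 was found in 30 of 32 cells of group 2, 29 of 41 of group 1 and 10 of 30 of group 3. INSM1 was found in 29 of 30 cells of group 3 and in 24 each of groups 1 and 2. EBF2 was spread most evenly of the 6 factors named above, in 34, 31, 23 and 13 cells of groups 1 to 4.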

How the data were processed

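The authors deposited raw UMI counts per gene and barcode of 1 single-cell 3' library, made, per the labels, with Cell Ranger 7.0.1 on GRCh38. The same notes name Seurat 4.4.0. The annotation version and the strand of counting are not given in the sources used here, and this Cell Ranger version counts intronic reads by default. The 33538 listed genes and 14726 barcodes were read with Python 3.11.15, numpy 2.4.6, scipy 1.17.1 and pandas 2.3.3.

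Some genes are not reported here. The members and gene lists were chosen with earlier results of these data known. Levels are summed UMIs of a gene over all UMIs of the cells, in CPM, with exact Poisson intervals. Ratios carry exact conditional intervals and shares Clopper-Pearson intervals, at 95%. A gene was compared when the mean of both CPM was at least 10, without the rule markers, and 2-fold refers to CPM + 1. Of the 10173 genes compared, 486 were under 10 CPM in comparison cells and 430 in members, so a large difference was in part a condition of their entry. A count of 0 was given the limit of 3 counts. Cells were thinned to 5000 UMIs where said. The script was tested on simulated data.

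The named genes were the rule markers, the 15 highest and 10 lowest ratios at a mean of at least 20 CPM (mitochondrial and ribosomal protein genes left out), the 5 highest between members with 4 or more and with 3 rule markers, and listed genes with the extreme ratios or a role described. Members were clustered with scanpy 1.11.5, leidenalg 0.10.2 and igraph 0.11.9 (1000 variable genes in at least 6 cells, 15 principal components, 10 neighbours, resolution 0.5). Scrublet, with 8% expected, set an automatic threshold of 0.774 that marked 1 barcode, so the caller had not worked and none was removed. Plots were made with matplotlib 3.10.9. Data of the knockout and knock-in genotypes of the study were not used here.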

Additional observations from a re-analysis of the deposited data

How the results depend on the processing

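The direction of the 3 summed lists was kept under every alternative in which they were computed again, and the share of members and the sizes moved. The other limits on mean CPM and the 10 CPM added do not enter the summed lists. With at least 2 rule markers needed, the share was 2.68%, the log2 ratio of the neuronal list 0.90, of the progenitor list -0.25 and of the mitotic list -0.16, and 2.19% of genes were higher and 0.0198% lower. With at least 4 they were 0.809%, 1.85, -1.02 and -1.87. With the rule read at 5000 UMIs per cell, which left 91 members, they were 0.744%, 2.03, -1.32 and -2.96, with 14.8% of genes lower. For the neuronal, progenitor and mitotic lists, the log2 ratios were 1.80, -0.87 and -1.46 with the quality filter of the study only, 1.91, -1.07 and -2.63 without the highest Scrublet scores, 1.93, -1.12 and -2.31 for the mean of per-cell CPM, and 1.59, -1.15 and -1.94 as UMIs per cell. In comparison cells weighted to the depth of the members the mitotic value was -1.46, and with 10 CPM added 4.49% of genes were lower. In 2 alternatives chosen after seeing the data the list values were 2.00, -1.21 and -3.50 in cells of at most 25000 UMIs and 2.02, -1.25 and -4.37 without group 4, with 13.5% of genes lower in the latter. Removing group 4 takes out most mitotic UMIs of the members by construction. The cause of the other shifts was not tested.

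Of 234 named or listed genes, 170 were past 2-fold. With at least 2 rule markers 86 of these were no longer past it and 5 turned, TAGLN to 0.19, SAMD4A to 0.047, UBE2C to 0.019, ACTA2 to 0.22 and CALD1 to 0.0011 (log2 ratio). In no other alternative did a gene turn, and at most 15 were no longer past the limit.

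With 1 library no replicate could be left out. No paired analysis was possible because there is 1 sample in 1 group. At 1971847 UMIs over the members, a gene without a UMI may reach 1.52 CPM, which limits what can be said of HIC1 and of the transmitter genes at 0.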

Other observations

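The genes that were at least 2-fold higher in members were long. Their median span from start to end was 105.9 kb (753 genes with a span), against 45.0 kb over the 10146 genes compared that had one and 45.1 kb over the 859 that were at least 2-fold lower. Spans over 100 kb were held by 51.7% of the higher genes, 27.3% of those compared and 27.1% of the lower ones. Of the genes named for their high ratio, SGCZ spans 1154 kb, CNTNAP5 895.9 kb and FSTL5 780.1 kb, and of the lists DCC spans 1196 kb and KCNIP4 1220 kb (GENCODE version 44). The counting software includes reads in introns by default, and the part of such reads in these values was not tested.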
